A study of Mus musculus with 4 samples.

Results

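The genes described here are 10 members of the circadian clock and of the PAR bZIP family that it controls, namely Arntl, Clock, Npas2, Per1, Per2, Per3, Cry1, Nr1d1, Dbp and Tef. They were chosen by name. Every probe whose RefSeq accession belongs to one of these symbols was taken, which gave 17 probes for the 10 genes, out of 41174 probes and 16358 named genes on the array. All 10 genes passed the filter on dim probes with at least 1 probe.

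Liver cell RNA was compared between HepKO mice, made to lack Pnpt1 in hepatocytes, and WT mice on 4 two-colour Agilent arrays. PNPase, the protein made from Pnpt1, degrades RNA and resides mostly in mitochondria. The HepKO mice were Albumin-Cre/wt Pnpt1 fl/fl and the WT mice were Pnpt1 fl/fl without Cre, so that both carried the floxed alleles, all on C57BL/6J. Albumin-Cre acts in hepatocytes, and other liver cells of a HepKO mouse keep the gene. There was 1 HepKO and 1 WT mouse in a pair labelled male, aged 12.29 weeks, and 1 of each in another labelled female, aged 4.29 weeks. A different age also stands in some labels of the male pair. Each HepKO mouse was matched to its WT partner by litter and went onto 2 arrays with it: HepKO RNA was in Cy5 in replicate 1 and, with the dyes swapped, in Cy3 in replicate 2. The 2 arrays of a pair share their RNA and count as 1 replicate, so that n = 2 pairs throughout. The p-values rest on the spread between 2 litters, moderated by the spread of all genes tested. Livers were perfused with collagenase and no sort of the pelleted cells is named. The time of day at which livers were taken, on which the level of a clock gene depends, was not given in the sources used here.

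The molecular clock is a loop of transcription factors that runs in nearly every cell, the hepatocyte included. ARNTL (also called BMAL1) pairs with CLOCK or NPAS2 and binds E-boxes in target genes. Among these targets are the Per and Cry genes, whose proteins return to the nucleus and repress the pair that switched them on. A further loop runs through NR1D1 (REV-ERB alpha), another target, which represses Arntl and Npas2. The PAR bZIP proteins DBP, TEF and HLF bind D-boxes, are themselves driven by the clock, and carry its rhythm to liver genes of drug, heme and lipid metabolism.

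The promoter letters through which this loop works are shown for the 5 members in which they were found. The 250 bases before the most upstream RefSeq start (build GRCm38.p6) were searched on both strands for the E-box CACGTG, the E-prime box CACGTT, the D-box TTATGTAA or TTACGTAA, the RORE that NR1D1 binds, and the CRE TGACGTCA. Of the 9 members with a promoter in the table, 3 held an E-box, 2 an E-prime box, 1 a D-box, and none a RORE or a CRE. Over all 32851 promoter windows of the same length the E-box was present in 6.02%, the E-prime box in 3.85%, the D-box in 0.931%, the RORE in 0.332% and the CRE in 1.55%. Capitals mark the matched letters, and AACGTG is the E-prime box read on the other strand. A match is a description and not a bound site, and a window without one says only that these letters are not in it.
Tef (E-box), chr15:81802531-81802566, plus strand: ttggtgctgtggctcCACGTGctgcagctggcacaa
Per1 (E-box), chr11:69098768-69098803, plus strand: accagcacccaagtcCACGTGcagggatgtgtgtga
Cry1 (E-prime box and E-box), chr10:85185094-85185148, minus strand: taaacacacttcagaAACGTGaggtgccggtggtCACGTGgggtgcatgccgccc
Nr1d1 (E-prime box), chr11:98775385-98775420, minus strand: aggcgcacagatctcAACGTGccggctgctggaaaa
Per3 (D-box, present at 2 places), chr4:151044801-151044885, minus strand: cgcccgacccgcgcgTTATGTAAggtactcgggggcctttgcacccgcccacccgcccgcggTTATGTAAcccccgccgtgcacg

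None of the 10 members passed the test for a difference between HepKO and WT liver cells, and 4 had an unadjusted p below 0.05 (Tef, Nr1d1, Clock and Per1). The test was limma with Benjamini-Hochberg adjustment over 11495 genes, at an adjusted p of 0.05. Over those genes 15.7% were called, 12% as higher and 3.71% as lower in HepKO, and 36.4% had an unadjusted p below 0.05, against 40% of the members. The values nearest to the threshold were those of the D-box factor Tef and the repressor Nr1d1, whose mean log2 ratios of HepKO over WT were -1.16 and -1.09. Members had a median of -0.18, with 3 of 10 above 0, against a median of 0.083 and 57.6% above 0 over all genes. The median size of the log2 ratio, without its sign, was 0.33 for the members and 0.32 for all genes.

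In a single channel, 48.2% to 58.6% of probes stood well above background. Pnpt1 itself had log2 ratios of 0.31, 0.058, -0.38 and -0.38 on the 4 arrays with its brighter probe (adjusted p = 0.747) and -0.67, -0.32, -0.50 and -0.60 with its other probe (adjusted p = 0.080 over all probes); the place of these probes relative to the deleted exons is not known here. Xist was well above background on 2 of 2 arrays in the pair labelled male and on 0 of 2 in the pair labelled female, in both genotypes, and the Y-linked Ddx3y, Eif2s3y and Kdm5d the other way round, which goes against the labelled sex of both pairs. The ages come from the same labels, so that which pair has which age is as uncertain. The ratio of HepKO over WT compares the mice of 1 pair, so that the label does not enter it. The pairs differ in labelled sex, age and slide at once, so that these cannot be told apart in any difference between pairs. Of 8 macrophage markers measured, all 8 rose in HepKO (median log2 ratio 1.87), and their summed intensity was 51034 to 71324 in HepKO against 7493 to 18873 in WT. Calls were also higher for 6 of 8 endothelial, 4 of 8 lymphocyte, 3 of 8 stellate cell and 1 of 4 cholangiocyte markers, with none lower. The 7 hepatocyte markers had a summed intensity of 398030 to 537860 in HepKO against 505010 to 718320 in WT. Their median log2 ratio was -0.12, with 3 of 7 above 0 and 2 of 7 of the same sign on all 4 arrays. Cyp2e1, a pericentral cytochrome P450, was lower at -2.38. Alb was at -0.60 in the pair labelled male and 0.35 in the pair labelled female, so that its mean of -0.12 describes neither pair. In unsorted cells, a changed share of hepatocytes and a changed RNA level per cell cannot be told apart.

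**Figure D1:**
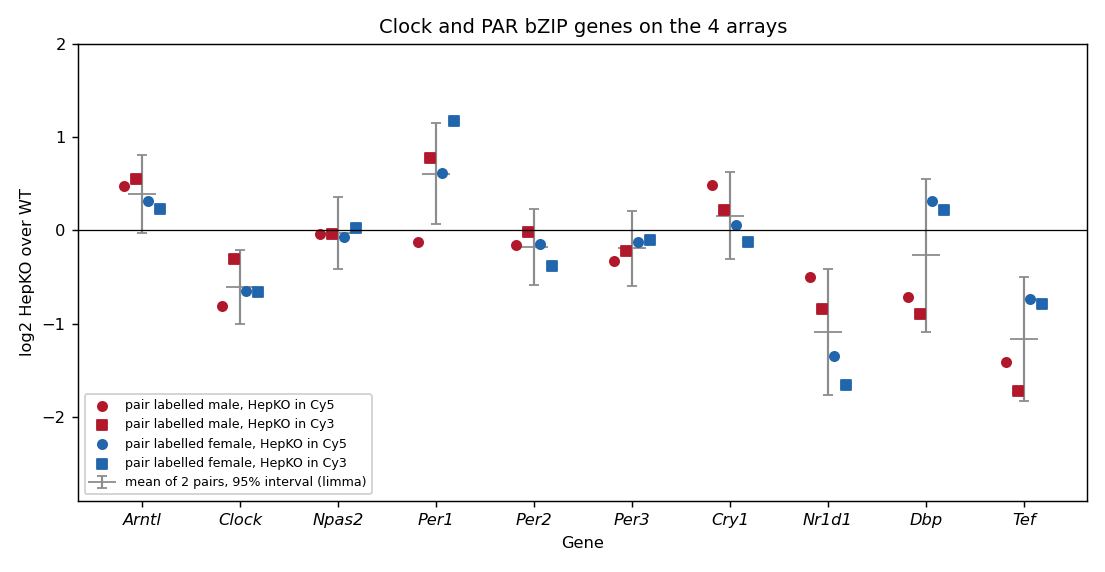
Log2 ratio of HepKO over WT (vertical axis) for the 10 genes (horizontal axis) on each of the 4 arrays; colour gives the pair, shape the dye of the HepKO RNA, and the grey bar the mean of 2 pairs with its 95% interval from limma. Tef, Nr1d1 and Clock lie below 0 and Arntl above 0 on all 4 arrays, while Dbp lies below 0 in one pair and above 0 in the other.

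Among the activators, Arntl and Clock had ratios of opposite sign. The Arntl probe gave log2 intensities of 10.99 and 11.08 in the HepKO mouse of the pair labelled male and 11.02 and 11.03 in that of the pair labelled female, against 10.51 and 10.53, and 10.71 and 10.80, in their WT partners. All HepKO values were above all WT values. The mean log2 ratio was 0.39 ± 0.15 (moderated SE, n = 2 pairs), a 1.31-fold difference with a 95% interval of -0.028 to 0.81 on the log2 scale, and an adjusted p of 0.154.

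Clock, whose protein is the usual partner of ARNTL, was read by 3 probes. The brightest gave log2 intensities of 8.88 and 8.96 in the HepKO mouse of the pair labelled male and 9.14 and 9.05 in that of the pair labelled female, against 9.69 and 9.26, and 9.79 and 9.71, in WT. Here too the genotypes did not overlap, with HepKO the lower. The log2 ratio was -0.61 ± 0.14 (95% interval -1.0 to -0.21, adjusted p = 0.064). The dimmer probes had means of -0.47 and -0.33, and all 3 were below 0 on each of the 4 arrays. On replicate 1 of the pair labelled male the 3 probes read -0.81, -0.76 and -0.63, and on its dye-swapped partner -0.30, -0.19 and -0.19. The 2 arrays of that pair thus differed by up to 0.57, and those of the pair labelled female by up to 0.17.

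Npas2, the other partner of ARNTL, had log2 ratios of -0.035 and -0.037 in the pair labelled male and -0.069 and 0.027 in the pair labelled female. Its mean was -0.029 ± 0.14, with a 95% interval of -0.42 to 0.36. Both genotypes lay at log2 intensities of 6.63 to 6.74 and overlapped. The sign of so small a value depends on the scaling: with median centring of each array the mean was 0.10.

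The Period genes encode repressors that pair with the CRY proteins, and none of the 3 passed the test. Per1, which also answers glucocorticoid and cAMP signals directly, had log2 intensities of 9.29 and 9.67 in the HepKO mouse of the pair labelled male and 9.19 and 9.47 in that of the pair labelled female, against 9.42 and 8.90, and 8.58 and 8.30, in WT. The lowest WT values belonged to the pair labelled female. Its ratios were -0.12 and 0.78 in the pair labelled male and 0.61 and 1.17 in the pair labelled female.

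In both pairs the array with HepKO in Cy3 gave the higher Per1 ratio, and the 2 orientations were 0.90 and 0.56 apart. The medians of that distance over all genes were 0.19 and 0.15. The mean over both orientations was 0.61 ± 0.20 (95% interval 0.065 to 1.16, adjusted p = 0.114). Taken alone, the arrays with HepKO in Cy3 gave 0.98 and passed the test (adjusted p = 0.0264), and those with HepKO in Cy5 gave 0.25 (adjusted p = 0.507). Without replicate 1 of the pair labelled male, Per1 passed at 0.84 (adjusted p = 0.0278), and without replicate 2 of that pair it was at 0.39 (adjusted p = 0.429).

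Per2 had log2 ratios of -0.16 and -0.017 in the pair labelled male and -0.14 and -0.38 in the pair labelled female, with a mean of -0.18 ± 0.15 (adjusted p = 0.438) and -0.19 for its second probe. The first probe gave 0.0097 with median centring and -0.59 with the log ratios of the scanner software (adjusted p = 0.155). Per3 was at the edge of detection: its probe was well above background on 0 of 4 arrays in HepKO and on 2 of 4 in WT. Its ratios of -0.33 and -0.22 in the pair labelled male and -0.12 and -0.10 in the pair labelled female (mean -0.19 ± 0.15, 95% interval -0.60 to 0.21, adjusted p = 0.395) are therefore ratios of signals at or near background. With the log ratios of the scanner software the same probe gave -1.34 (adjusted p = 0.152).

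Cry1, the repressor with both E-box types shown above, had log2 intensities of 8.57 and 8.42 in the HepKO mouse of the pair labelled male and 8.55 and 8.46 in that of the pair labelled female. The WT partners read 8.09 and 8.20, and 8.49 and 8.59. HepKO was above WT in the first pair and at 0.058 and -0.12 relative to it in the second, so that the genotypes overlapped. The mean log2 ratio was 0.16 ± 0.17 (95% interval -0.31 to 0.62, adjusted p = 0.537). Over the other settings it ran from 0.028 with the log ratios of the scanner software to 0.38 with median centring, and none passed. A second Cry1 probe was not well above background on any array.

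By the brightest probe, Nr1d1 had the second most negative ratio of the members. Its brighter probe read log2 intensities of 8.46 and 8.20 in the HepKO mouse of the pair labelled male and 8.14 and 8.0 in that of the pair labelled female, against 8.96 and 9.05, and 9.49 and 9.66, in WT. The genotypes did not overlap, and the gap was wider in the pair labelled female, at -1.50 against -0.68. The mean was -1.09 ± 0.25, 2.13-fold lower in HepKO, with a 95% interval of -1.77 to -0.41 and an adjusted p of 0.0596. Of all genes, 2.69% had a log2 ratio as low. Nr1d1 passed the test in 5 of 16 other settings, among them the stricter filter (adjusted p = 0.0464) and the fits without replicate 1 of the pair labelled male (0.0262) or replicate 2 of the pair labelled female (0.0482). The dimmer probe of Nr1d1 gave a mean of -0.51 and read 0.003 and -0.36 in the pair labelled male and -0.91 and -0.78 in the pair labelled female.

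Of the PAR bZIP factors, Tef had the lowest ratio of the 10 members when each was read by its brightest probe. Its brightest probe gave log2 intensities of 7.61 and 7.43 in the HepKO mouse of the pair labelled male and 8.02 and 7.96 in that of the pair labelled female, against 9.02 and 9.15, and 8.75 and 8.74, in WT. The genotypes were well separated, most of all in the pair labelled male. The mean log2 ratio was -1.16 ± 0.24, 2.24-fold lower in HepKO (95% interval -1.83 to -0.50), and its adjusted p of 0.0512 lay just above the threshold. All 3 Tef probes were below 0 on all 4 arrays, and the dimmer probes gave -0.64 and -0.45. With the mean of all kept probes Tef was at -0.75, above Nr1d1 at -0.80. Tef, Per1 and Cry1 hold the E-box letters shown above, and their ratios were -1.16, 0.61 and 0.16, none of which passed. A link between these letters and the ratios was not tested. Tef passed the test in 8 of 16 other settings, including the authors' own log ratios (-1.64, adjusted p = 0.0475), a stricter filter on dim probes (0.0384), and the fits without replicate 1 of the pair labelled male (0.0387) or without replicate 2 of the pair labelled female (0.0476).

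Dbp, named for binding the D element of the albumin promoter, had ratios of -0.71 and -0.90 in the pair labelled male and 0.32 and 0.22 in the pair labelled female. The 2 arrays of a pair lay within 0.19 and 0.092 of each other, so that the dye swap repeated each value, and the pairs stood on opposite sides of 0. The mean of -0.27 ± 0.30 (adjusted p = 0.555) therefore describes neither pair, and it ran from -0.45 to -0.080 over the other settings. Of all genes tested, 8.46% had pairs on opposite sides of 0 in this way. With 1 mouse of each genotype per pair, the difference between the pairs could not be tested.

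**Figure D2:**
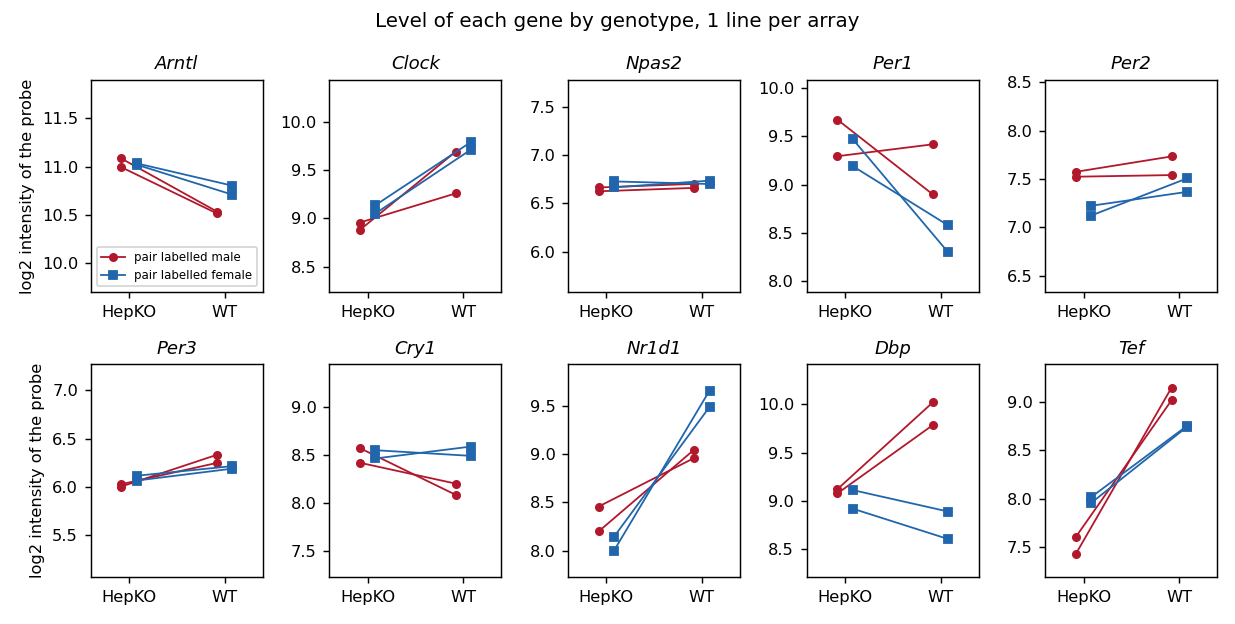
Normalized log2 intensity (vertical axis, each panel spanning the same number of log2 units) of each member's brightest probe in HepKO and in WT, with 1 line per array and colour for the pair. The Tef and Nr1d1 lines climb toward WT in both pairs, the Dbp lines run in opposite directions, and levels are comparable within a panel only.

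By the brightest probe, the 2 WT mice stood further apart than the 2 HepKO mice for most members. Dbp was at 9.10 and 9.02 in the HepKO mice of the pairs labelled male and female, against 9.90 and 8.75 in the WT mice, each the mean of 2 channels. The difference between the pairs was 0.082 in HepKO and 1.16 in WT. For Per1 it was 0.15 in HepKO and 0.72 in WT, and for Cry1 -0.012 and -0.39. Nr1d1 had 0.26 in HepKO and -0.57 in WT.

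In 7 of 10 members the WT mice were further apart than the HepKO mice, against 41.9% of all genes. Per3 is 1 of these 7, at -0.075 in HepKO and 0.088 in WT. Its probe was not well above background in HepKO on any array, so that its place among them is not a result. The median size of the difference was 0.12 in HepKO and 0.31 in WT for the members, and 0.21 and 0.15 for all genes. Tef ran the other way (-0.47 in HepKO and 0.34 in WT), as did Per2 (0.38 and 0.20), while Npas2 had -0.052 and -0.037. Each gene is read here by its brightest probe, and the order can turn with another. The dimmer Tef probes gave -0.022 and -0.052 in HepKO, and 0.12 and 0.057 in WT. The second Per2 probe gave 0.23 in both genotypes. The dimmer Clock probes gave -0.20 and -0.21 in HepKO, and -0.18 and -0.047 in WT. The dimmer Nr1d1 probe kept its order, at 0.080 in HepKO and -0.59 in WT. These levels are set across slides, and genotype has 1 mouse at each age and labelled sex, so that they are a description with no test.

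**Figure D3:**
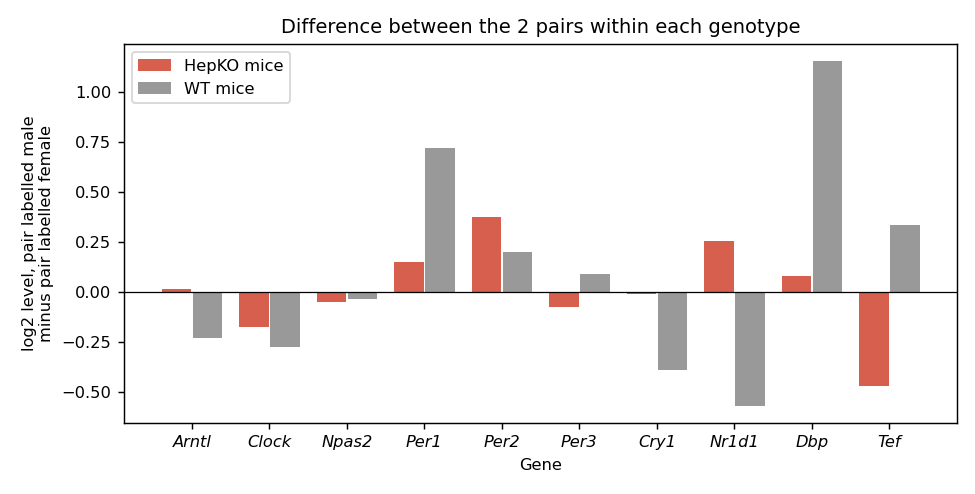
Difference in log2 level between the pair labelled male and the pair labelled female (vertical axis) for each gene's brightest probe, in the HepKO mice (left bar) and in the WT mice (right bar), each bar the mean of 2 dye orientations. The WT bar for Dbp reaches 1.16 while its HepKO bar is at 0.082.

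Over the 4 arrays, the HepKO and WT intensities did not overlap for 5 members, 4 with HepKO below WT (Clock, Per3, Nr1d1 and Tef) and 1 with HepKO above (Arntl). For Per3 the intensities set apart lie at or near background, on all 4 arrays in HepKO and on 2 of 4 in WT. Per3 passed the filter on dim probes through WT alone, so that its place here is not a result. Clock, Nr1d1, Tef and Arntl were well above background on all 4 arrays in each genotype. Over all genes 47.9% did not overlap, 17.1% with HepKO below and 30.8% with HepKO above. The order of the members' log2 ratios by the brightest probe, from lowest to highest, was Tef, Nr1d1, Clock, Dbp, Per3, Per2, Npas2, Cry1, Arntl and Per1. Neighbours in this order had overlapping 95% intervals throughout. The gene nearest to Tef in its pattern over the 4 arrays was Abcb11, the bile salt export pump, at a Euclidean distance of 0.113 in log2 units, followed by Rida (0.119) and Sardh, sarcosine dehydrogenase (0.170). Nearest to Per1 were Upp2, a uridine phosphorylase (0.342), the monocarboxylate transporter Slc16a1 (0.35) and the adaptor Sh3bp2 (0.424). None of these 6 genes passed the test, which uses the same ratios by which they were picked, so that this adds nothing to their nearness.

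The remaining genes of the loop gave 1 call among 7 measured. Over all genes tested 15.7% were called, the share to set beside this list and those below. Nr1d2 (REV-ERB beta), the close relative of Nr1d1, was lower in HepKO, with ratios of -1.02 and -0.73 in the pair labelled male and -0.46 and -0.81 in the pair labelled female (mean -0.75 ± 0.15, adjusted p = 0.0481). It lost the call in 8 of 16 other settings, among them the authors' value table (0.0508), median centring (0.0945) and the fit without replicate 2 of the pair labelled male (0.074). Hlf, the PAR bZIP relative of Tef and Dbp, was close to it at -0.75 ± 0.17 (adjusted p = 0.0598) with all 4 arrays below 0. Dbp, Tef and Hlf together make up the PAR bZIP factors measured here, and none of them passed. Nfil3, which binds the same D-boxes as a repressor, had ratios of 1.49 and 1.56 in the pair labelled male and -0.25 and -0.15 in the pair labelled female, the opposite arrangement to Dbp. The list had a median of 0.14, and Bhlhe41, Ciart and Arntl2 did not pass the filter on dim probes.

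Genes named as targets of the PAR bZIP factors went in both directions. Of 10 measured, Nr1i3 (the constitutive androstane receptor; -2.15 ± 0.17, adjusted p = 0.0141) and the acyl-CoA thioesterase Acot1 (-0.97 ± 0.15, adjusted p = 0.0295) fell, and Alas1, the first enzyme of heme synthesis, rose (1.59 ± 0.23, adjusted p = 0.0272). Alas1 lost the call with median centring (1.15, adjusted p = 0.0797). The list median was -0.19. The highest ratios were in the closely related Cyp2a4 (2.38 ± 0.88) and Cyp2a5 (1.62 ± 0.56), which a probe may not tell apart and which did not pass (adjusted p = 0.14 and 0.125). Their means describe neither pair: Cyp2a4 was at 0.62 in the pair labelled male and 4.13 in the pair labelled female, and Cyp2a5 at 0.53 and 2.71.

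Among 8 clock output genes, Nampt, the rate-limiting enzyme of NAD salvage, rose by 1.85 ± 0.16 on the log2 scale (adjusted p = 0.0152) and none fell. Elovl3, a fatty acid elongase, had the lowest ratio in the list at -2.46 ± 0.63 (adjusted p = 0.0737). Its ratios were -1.12 and -1.31 in the pair labelled male and -2.87 and -4.54 in the pair labelled female. The probe was well above background on 3 of 4 arrays in HepKO and 4 of 4 in WT, and the strict filter left it out. With the log ratios of the scanner software the mean was -4.24 (adjusted p = 0.0101). Usp2, a ubiquitin protease gene with a daily rhythm in mouse liver, had ratios of -0.84 and -0.72 in the pair labelled male and a mean of 0.51 in the pair labelled female, and was picked out after its values were seen. None of 12 clock protein kinases and ubiquitin ligases passed, and 3 had an unadjusted p below 0.05. The largest ratios there were in the PER kinases Csnk1e (1.36 ± 0.35, adjusted p = 0.0732) and Csnk1d (0.56 ± 0.16, adjusted p = 0.0875). Csnk1e passed with median centring (1.55, adjusted p = 0.0484) and without replicate 1 of the pair labelled male (1.27, adjusted p = 0.0468). Csnk1d was at 0.97 on the arrays with HepKO in Cy5 (adjusted p = 0.0381) and 0.14 on those with HepKO in Cy3. It was at 0.32 without replicate 1 of the pair labelled male, 0.38 without replicate 1 of the pair labelled female, and 0.73 without replicate 2 of the pair labelled female (adjusted p = 0.0443).

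Signals that reset the liver clock were read from 4 lists. Of 5 glucocorticoid-responsive genes, 1 rose (Sgk1, 2.60 ± 0.21, adjusted p = 0.0143) and none fell, with a median of 1.02; Fkbp5 was at 0.24 in the pair labelled male and 1.80 in the pair labelled female, and Tsc22d3 at -0.94 and -0.0093. Of 9 immediate early genes, Atf3 (3.86 ± 0.44) and Jun (2.31 ± 0.40) rose and none fell, with a median of 2.40 in the pair labelled male and 0.22 in the pair labelled female. Jun had an adjusted p of 0.0515 without replicate 2 of the pair labelled male and 0.0501 without replicate 1 of the pair labelled female. Heat shock genes had 0 of 5 called (0 with an unadjusted p below 0.05), and the largest ratios were in Hspa1a (0.64, with 1.89 in the pair labelled male and -0.60 in the pair labelled female) and Hspa8 (0.46). Of 9 fasting and feeding genes 0 were called and 1 had an unadjusted p below 0.05; Igfbp1 had the largest ratio at 2.88 ± 0.83 (adjusted p = 0.0918), with Pdk4 next at 0.57. The part of these signals, and of the macrophage RNA given above, in the members' values was not tested.

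**Figure D4:**
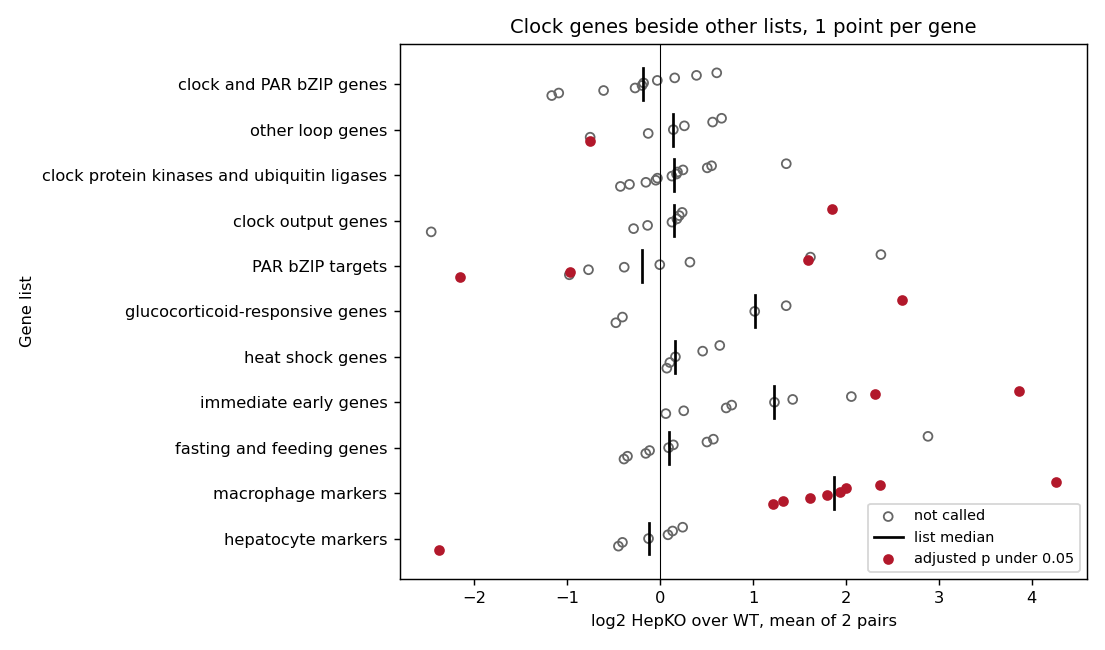
Mean log2 ratio of HepKO over WT (horizontal axis), 1 point per measured gene, for the 10 clock and PAR bZIP genes and the other lists (vertical axis); filled points had an adjusted p under 0.05 and the black bar is the list median. All 8 macrophage markers are filled and lie between 1.22 and 4.26, while none of the 10 members is filled.

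**Figure D5:**
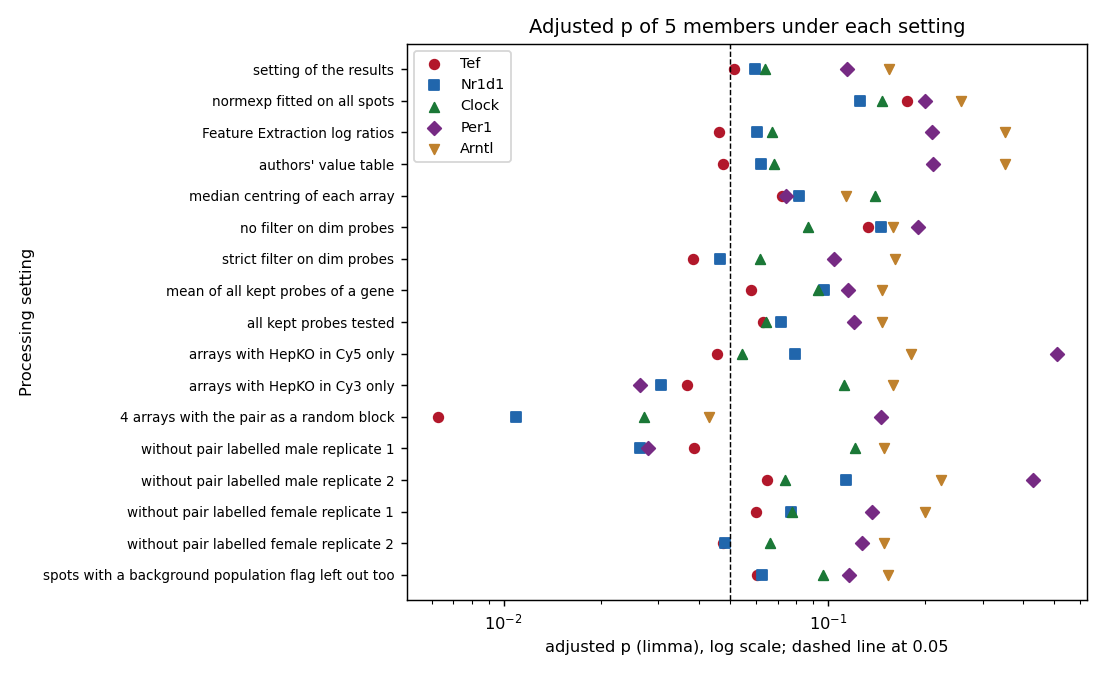
Adjusted p from limma (horizontal axis, log scale, dashed line at 0.05) for the 5 members with the smallest p, under each processing setting (vertical axis). Tef lies left of the line in 8 of 16 other settings, Nr1d1 in 5, Per1 in 2, and Clock and Arntl in 1 each.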

How the data were processed

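The deposited intensity values used here are each spot's mean signal and local background median as the scanner software (Agilent Feature Extraction 10.2.1.3, per the file headers) wrote them, before any subtraction. Alternatives started from the log10 ratios in the same deposited files, which this software had corrected for background and dye, and from the authors' value table, which holds them turned to HepKO over WT.

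Signals were corrected with normexp (offset 50) and loess in limma 3.58.1 (R 4.3.3). Spots with an outlier flag (178 to 260 per array) were left out first; control spots had weight 0. Log2 ratios of both dye orientations were averaged per pair. Probes well above background on both arrays of a pair in a genotype were kept, the brightest standing for a gene named by RefSeq accession (GRCm38.p6). The test was a limma intercept on 2 pair values with Benjamini-Hochberg adjustment over 11495 genes. It had 1 residual degree of freedom, plus 3.12 borrowed across genes. Levels per channel were scaled by Aquantile. The number of arrays limits the precision.

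Members, lists and tests were chosen with earlier results of these data known. All 10 members are named; in each other list, the called genes (up to 4) or the 2 of largest change are named, with additions made after seeing values (Hlf, Nfil3, Cyp2a4, Cyp2a5, Elovl3, Usp2, Fkbp5, Tsc22d3 and Alb). Promoter sequences are those of RefSeq.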

Additional observations from a re-analysis of the deposited data

Results flagged for a closer look

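Dbp was flagged because its pairs lay on opposite sides of 0 on every array, at -0.80 in the pair labelled male and 0.27 in the pair labelled female. Such an arrangement was found in 1 of 10 members and in 8.46% of all genes tested. The difference between the pairs was not tested, since each genotype has 1 mouse per pair.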

How the results depend on the processing

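The count of members called was 0 here and stayed at 0 with normexp fitted on all spots, median centring, no filter on dim probes, the mean of a gene's probes, all kept probes tested, and, added after seeing the data, spots with a background population flag left out too. In that last setting Dbp was not measured, and Tef and Clock were each read by a dimmer probe. It was 1 (Tef, lower) with the Feature Extraction log ratios, the authors' value table and the arrays with HepKO in Cy5, 2 with the strict filter (Tef and Nr1d1), 3 on the arrays with HepKO in Cy3 (also Per1) and 4 with all 4 arrays and the pair as a random block (Arntl, Clock, Nr1d1 and Tef), which counts dye swaps in part as replicates. Leaving out 1 array gave 0 to 3, with 3 (Per1, Nr1d1 and Tef) without replicate 1 of the pair labelled male and 2 (Nr1d1 and Tef) without replicate 2 of the pair labelled female. No member passed in opposite directions under different settings, and the sign of a mean turned for Npas2 (0.10) and Per2 (0.0097) with median centring, which moved the median of all genes to 0.18. The value of Tef ranged from -1.64 to -0.64, that of Nr1d1 from -1.45 to -0.80 and that of Per3 from -1.34 to -0.16. The other clock-related lists had 8 calls among 65 genes here, where 15.7% of all genes tested were called. These lists had 0 calls with normexp on all spots or with no filter (settings in which no gene of the array passed; 3026 and 4638 had an unadjusted p below 0.05). They had 21 with the random block, and 6 to 13 without 1 array (13 without replicate 1 of the pair labelled male). Over all genes 1378 were higher and 427 lower here, and 2685 and 1394 with the random block. Without replicate 2 of the pair labelled male they were 920 and 202, and without its replicate 1 they were 1572 and 572. The strict filter gave 1222 and 501 of 9838 genes, and the arrays with HepKO in Cy3 gave 1626 and 683 of 11500. Without replicate 2 of the pair labelled female they were 1486 and 501. In the settings with Tef as the only member called, many other genes were called as well. The Feature Extraction log ratios gave 1599 higher and 543 lower of 11495 genes. The authors' own log ratios gave 1570 and 526 of 11495. The arrays with HepKO in Cy5 gave 1406 and 456 of 11502. Calls over all genes thus changed with the setting too. Whether calls among the members changed more than these was not tested. The test is already paired by litter, and the replicate numbers mark dye orientations, so that no further block on them was fitted. Dim probes such as Per3 limit the precision.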
